A study of Mus musculus with 9 samples.

Results

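T lymphocytes and cytotoxic lymphocytes were followed in irradiated mouse submandibular glands through 9 transcripts, chosen by name: Cd3d, Cd3e, Cd3g, Cd4, Cd8a, Lck, Nkg7, Gzmb and Ccl5. They are 9 of the 54532 genes counted. All glands came from wild-type (WT) mice and had received 10 Gy of radiation. They were collected 30, 60 or 90 days later, with 3 libraries per time point made from RNA of tissue sections by a SMARTER mRNA-seq preparation. Non-irradiated glands were not analysed here, so only irradiated glands of different times are compared, and the time that passed and the age of the mice cannot be told apart. The labels do not say that the 3 samples of a group are separate animals, and the p-values measure the spread between these samples, which may be technical.

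T cells recognise antigen through a receptor whose variable chains signal through the CD3 subunits encoded by Cd3d, Cd3e and Cd3g. CD4 and CD8 are coreceptors that bind MHC class II and class I, and the kinase Lck, which docks on their tails, phosphorylates the CD3 chains. Cytotoxic T cells and natural killer (NK) cells kill through granules that carry granzymes such as Gzmb and the membrane protein Nkg7, and they release the chemokine Ccl5. Salivary glands hold resident lymphocytes between their acini and ducts.

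Total counts ran from 16541396 to 26065856 per library, and all 3 libraries of the 30-day group held fewer than any of the other 6. The glandular identity was visible in each library, with 6725 to 9757 counts of the acinar water channel Aqp5 and 11441 to 170452 counts of the duct growth factor Egf. The summed level of 10 acinar markers ranged from 457100 to 646700 CPM at 30 days and from 310700 to 458200 CPM at 90 days. CPM are a gene's counts as a share of the scaled library total, to which the gland's own epithelial genes contribute these values, and the part of this difference in the lymphocyte values was not tested. In bulk tissue, fewer cells of a type and less RNA per cell cannot be told apart.

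Sample 2 of the 90-day group stood apart from the other 8 libraries. Cd79a, a signalling chain of the B-cell receptor, had 68 counts in it and 0 to 4 elsewhere. Ighm, the heavy chain of IgM, had 5562 counts against 114 to 309. Both genes were named after their values were seen. All 10 genes of a B-cell marker list were highest in this library. The same library was highest for 7 of the 9 lymphocyte transcripts, against 13.0% of the 27001 genes with a count, so the members' fold changes at 90 days are also given without it.

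All 9 transcripts were scarce. Per kilobase of exon, the mean level over the 9 libraries was highest for Ccl5 (3.91 CPM per kb), followed by Nkg7 (2.29), Gzmb (0.809) and Lck (0.487). Cd4 (0.171), Cd3g (0.148), Cd3d (0.113), Cd3e (0.108) and Cd8a (0.0978 CPM per kb) followed. Between neighbours in this order, the ranges across libraries overlapped in each case.

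The promoters of the CD3 genes and of the cytotoxic granule genes are shown, as the genes that stand for T cells and for killing by T and NK cells. The 250 bases before the start of each gene come from RefSeq (GRCm38.p6), 5′ to 3′ on the gene's own strand. Capitals mark any match, on either strand, to 4 core motifs. The motifs were TGTGGT for RUNX factors, AGGAAG for ETS factors, AGATAA for GATA factors and TGANTCA for AP-1, and the matches shown do not overlap one another. Entries were found for 7 of the 9 genes, Cd4 and Ccl5 being the other two. The windows are chr9:44981536-44981785 (plus strand) for Cd3d, chr9:45009612-45009861 (minus strand) for Cd3e, chr9:44980432-44980681 (minus strand) for Cd3g, chr7:43436888-43437137 (plus strand) for Nkg7 and chr14:56262335-56262584 (minus strand) for Gzmb.
Cd3d: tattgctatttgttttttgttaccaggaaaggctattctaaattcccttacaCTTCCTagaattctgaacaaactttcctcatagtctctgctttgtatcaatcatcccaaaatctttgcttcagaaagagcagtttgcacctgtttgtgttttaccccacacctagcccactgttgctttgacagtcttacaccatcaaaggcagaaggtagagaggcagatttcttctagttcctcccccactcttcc
Cd3e: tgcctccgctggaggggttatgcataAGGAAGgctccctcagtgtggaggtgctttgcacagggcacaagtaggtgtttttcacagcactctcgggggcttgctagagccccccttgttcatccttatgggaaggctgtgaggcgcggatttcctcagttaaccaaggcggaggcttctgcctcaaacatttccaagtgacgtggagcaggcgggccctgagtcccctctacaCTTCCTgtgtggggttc
Cd3g: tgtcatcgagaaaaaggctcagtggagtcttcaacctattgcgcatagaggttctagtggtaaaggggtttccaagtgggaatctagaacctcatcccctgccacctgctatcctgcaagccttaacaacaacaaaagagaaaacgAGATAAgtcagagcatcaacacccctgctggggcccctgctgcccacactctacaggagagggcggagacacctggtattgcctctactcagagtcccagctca
Nkg7: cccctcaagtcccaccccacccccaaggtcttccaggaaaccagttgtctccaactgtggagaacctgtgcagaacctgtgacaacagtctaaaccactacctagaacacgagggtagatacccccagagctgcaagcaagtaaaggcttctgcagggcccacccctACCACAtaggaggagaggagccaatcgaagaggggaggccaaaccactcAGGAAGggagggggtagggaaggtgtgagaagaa
Gzmb: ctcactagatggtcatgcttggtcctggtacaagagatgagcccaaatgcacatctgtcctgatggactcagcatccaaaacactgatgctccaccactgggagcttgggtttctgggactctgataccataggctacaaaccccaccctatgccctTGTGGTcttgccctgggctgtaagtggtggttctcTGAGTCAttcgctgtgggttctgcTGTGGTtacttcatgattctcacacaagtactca
Positions are counted from the RefSeq start, which is the GENCODE start for Cd3d and Cd3g. It lies 16 bases downstream of the GENCODE start for Cd3e, 65 downstream for Nkg7 and 74 upstream for Gzmb, whose gene spans below are those of GENCODE. The Cd3d window held 1 ETS core and the Cd3e window 2, one of them starting 17 bases before the gene's start. The Cd3g window held 1 GATA core. Gzmb had 2 RUNX cores, at 93 and 34 bases before the start, with an AP-1 match between them at 58 bases. Nkg7 had a RUNX core at 83 and an ETS core at 34 bases before the start, and the Cd8a window matched none of the 4. Among 32851 promoters of this length, 14.0% held the RUNX core, 29.5% the ETS core, 9.99% the GATA core and 6.75% the AP-1 match. A match describes the letters only.

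The 3 CD3 genes had 0 to 10 counts per library at 30 days and 4 to 50 at 90 days. For Cd3d and Cd3e the 90-day libraries were above all earlier ones, for Cd3g they were not, and none of the 3 passed a pairwise test with the filter on counts. They lie together on chromosome 9 within 40056 bases (GRCm38): Cd3g at chr9:44969572-44980431 (minus strand), Cd3d at chr9:44981786-44987339 (plus) and Cd3e at chr9:44998740-45009627 (minus). The facing starts of Cd3g and Cd3d are 1355 bases apart.

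Cd3d, the delta chain, had no read in any of the 3 libraries at 30 days. It had 2, 2 and 3 counts at 60 days and 6, 33 and 4 counts at 90 days, in the order of samples 1 to 3. The 3 time points thus did not overlap in CPM, and 90-day sample 2 had 5.61 times the level of the next library. Against a floor of 3 counts over the 30-day group, the pooled level was at least 1.61-fold higher at 60 days and at least 8.71-fold higher at 90 days. Without 90-day sample 2 it was at least 3.22-fold higher at 90 days. Cd3d was too low for the filter on counts, which keeps genes with at least 10 counts' worth of reads in 3 libraries. Fitted without that filter, it differed between 90 and 30 days with an adjusted p of 0.00416, a call lost without 90-day sample 2 (adjusted p = 0.428; edgeR's quasi-likelihood test with Benjamini-Hochberg adjustment, as for all adjusted p-values on genes here).

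Cd3e, the epsilon chain that pairs with both other CD3 chains, had 3, 2 and 4 counts at 30 days, 4, 6 and 5 at 60 days and 16, 31 and 23 at 90 days. All 3 libraries of the 90-day group were above the other 6, and here sample 3 was the highest in CPM. Its mean level was 0.189 ± 0.0622 CPM at 30 days, 0.217 ± 0.0499 at 60 days and 0.919 ± 0.332 at 90 days (SD, n = 3). At 90 days its log2 fold change was 2.24 ± 0.63 (SE) against 30 days (adjusted p = 0.0550) and 2.04 ± 0.58 against 60 days (adjusted p = 0.184). In the test of any difference among the 3 time points it passed, with an adjusted p of 0.0432, a call made for 3.29% of the 15224 genes tested. Cd3e entered the tests only through its 90-day libraries, since no earlier library reached the filter's level. The call was lost when any library other than 90-day sample 1 was left out (adjusted p 0.0657 to 0.237, the highest without 90-day sample 2), and with limma-voom (0.174). It was kept without 90-day sample 1 (adjusted p = 0.0429). Over the 14 alternatives that gave a value, the adjusted p ran from 0.0345 to 0.237 and was under 0.05 in 4. Without 90-day sample 2 it stood at 2.10 against 30 days and 1.90 against 60 days on the log2 scale. DESeq2 gave it no adjusted p.

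Cd3g, the gamma chain, had 4, 3 and 10 counts at 30 days, 1, 6 and 8 at 60 days and 17, 50 and 7 at 90 days. The 90-day group was above the 60-day group in CPM but overlapped the 30-day group, and sample 2 had 2.9 times the level of the next library. Against 60 days, the 90-day level differed by 2.02 ± 0.72 (SE) on the log2 scale, which did not pass (adjusted p = 0.305), and by 1.09 without 90-day sample 2 (adjusted p = 0.843). Between 90 and 30 days the value was 1.33 ± 0.71 (adjusted p = 0.364), and it was 0.40 without 90-day sample 2.

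Cd4, the MHC class II coreceptor (chr6:124864692-124888221, minus strand), and Cd8a, the alpha chain of the class I coreceptor (chr6:71373427-71379173, plus strand), were both highest at 90 days. Cd4 had 1, 8 and 4 counts at 30 days, 5, 13 and 11 at 60 days and 18, 76 and 19 at 90 days. Every 90-day library was above the 6 earlier ones, and sample 2 had 2.74 times the level of the next library. Its mean level was 0.261 ± 0.203 CPM at 30 days, 0.421 ± 0.189 at 60 days and 1.39 ± 1.07 at 90 days (SD, n = 3). At 90 against 30 days its log2 fold change was 2.36 ± 0.68 (SE; adjusted p = 0.0623), or 1.50 without 90-day sample 2 (adjusted p = 0.466). Against 60 days it was 1.72 ± 0.61 (adjusted p = 0.305), or 0.86 without that sample. Macrophages and dendritic cells can also transcribe Cd4; 13 macrophage and monocyte markers summed to 191.3 to 357.7 CPM at 30 days, 234.6 to 261.2 at 60 days and 264.5 to 442.7 at 90 days, with the highest value in 90-day sample 2, and their part in the Cd4 values was not tested.

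Cd8a had 1, 7 and 1 counts at 30 days, 2, 7 and 6 at 60 days and 11, 30 and 12 at 90 days. The 90-day group lay above the 60-day group but not above all of the 30-day group. Cd8a did not pass the filter on counts. Without that filter, it differed by 1.83 ± 0.82 (SE) on the log2 scale at 90 against 30 days (adjusted p = 0.290), and by 1.36 when 90-day sample 2 was left out as well (adjusted p = 0.823).

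The balance of the coreceptor transcripts differed little between time points beside its counting error. Cd4 supplied 13 of the 22 pooled Cd4 and Cd8a counts at 30 days, a share of 59.1% (95% Wilson interval 38.7 to 76.7). The share was 65.9% (51.1 to 78.1, 29 of 44 counts) at 60 days and 68.1% (60.6 to 74.7, 113 of 166 counts) at 90 days. Without 90-day sample 2 the 90-day share was 61.7% (49.0 to 72.9). These intervals treat the pooled reads as independent and leave out the spread between samples. Amplified reads that carry no molecular identifier may come from 1 molecule, so the intervals may be too narrow. The intervals of the time points overlapped, and no test between the time points was run.

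**Figure D1:**
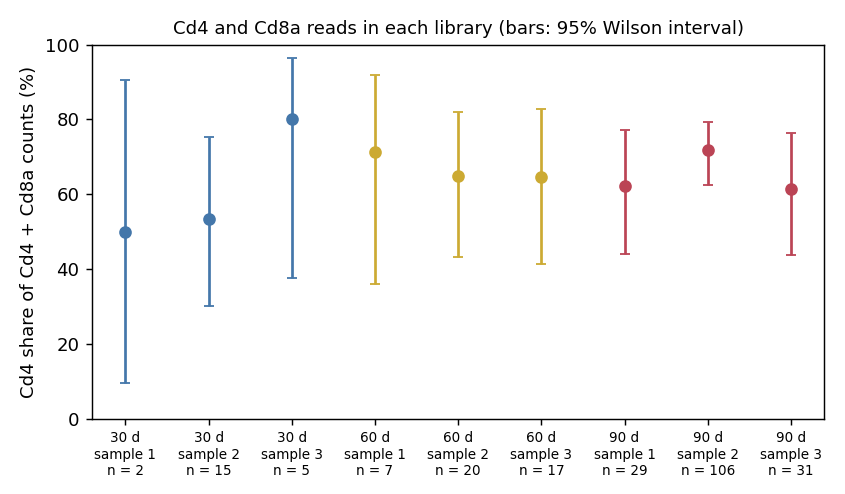
Share of Cd4 among the Cd4 and Cd8a counts (vertical axis, percent) in each of the 9 libraries, with the number of counts under each and 95% Wilson intervals as bars. The shares run from 50.0% to 80.0% and the intervals of all libraries overlap.

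Lck, the kinase that starts signalling from the receptor (chr4:129548344-129573641, minus strand), was the most abundant of the T-lineage transcripts in counts. It had 15, 25 and 16 counts at 30 days, 19, 10 and 30 at 60 days and 34, 104 and 42 at 90 days. The 90-day values overlapped both earlier groups in CPM, and sample 2 was 1.7 times the next library. At 90 days its log2 fold change was 1.42 ± 0.44 (SE) against 60 days (adjusted p = 0.248) and 0.96 ± 0.44 against 30 days (adjusted p = 0.279). Without 90-day sample 2 these values were 0.92 and 0.45.

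**Figure D2:**
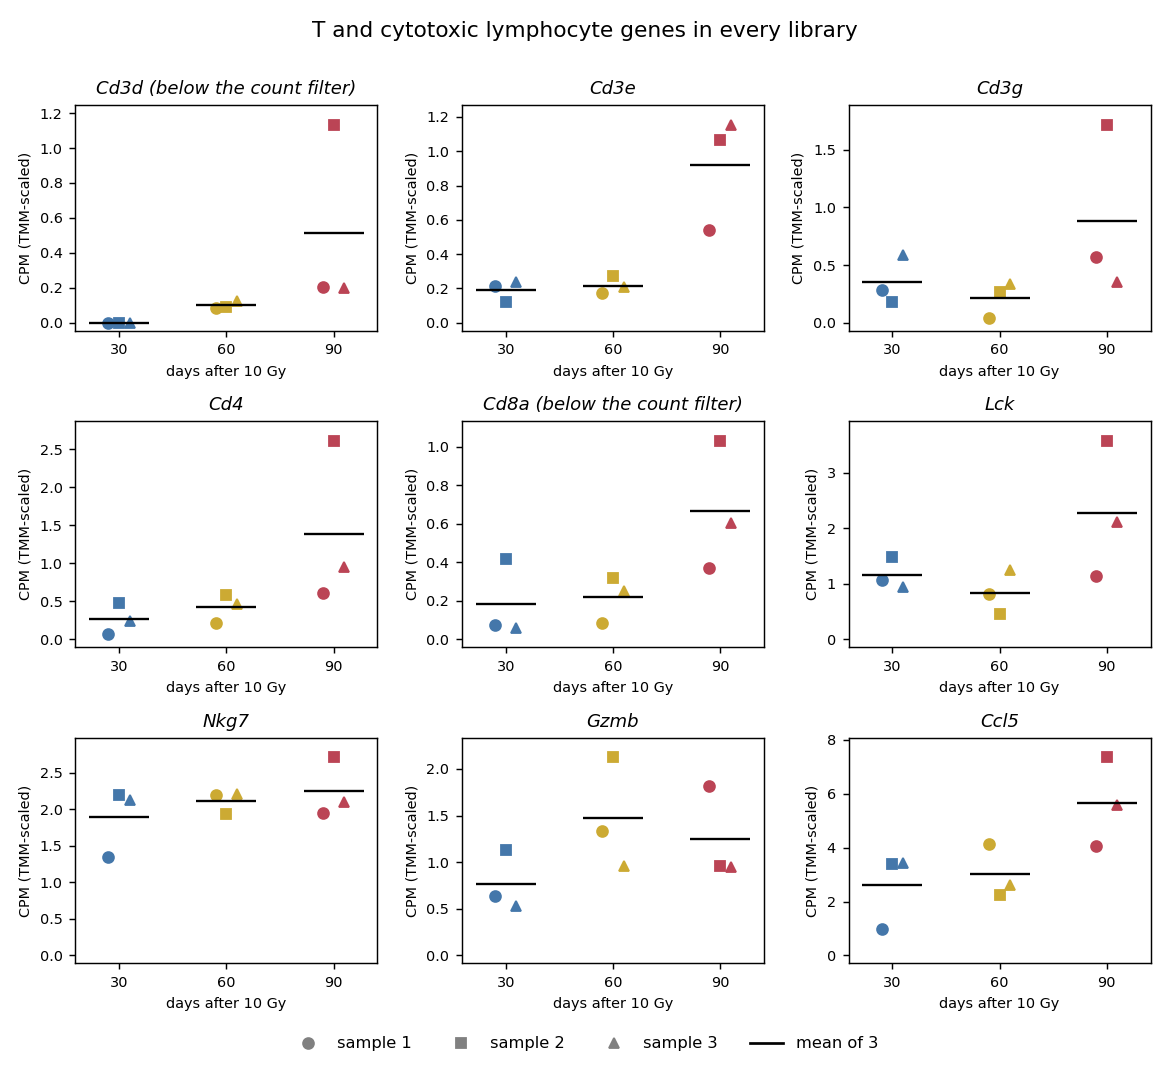
Level of each of the 9 transcripts (vertical axes, CPM) by days after irradiation, with each point a library, its shape the sample number and a line at the mean of 3. Cd3d, Cd3e and Cd4 are above all 6 earlier libraries in each 90-day library, whereas Gzmb is highest in 60-day sample 2.

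The cytotoxic granule transcripts were found in every library, and their time points overlapped. Nkg7, a granule membrane protein of NK and cytotoxic T cells (chr7:43437073-43438249, plus strand), had 19, 37 and 36 counts at 30 days, 51, 43 and 53 at 60 days and 58, 79 and 42 at 90 days. The 3 groups overlapped, with means of 1.89 ± 0.473, 2.12 ± 0.151 and 2.26 ± 0.402 CPM (SD, n = 3). At 90 against 30 days its log2 fold change was 0.25 ± 0.30 (SE; adjusted p = 0.754), or 0.087 without 90-day sample 2. At 90 against 60 days it was 0.094 ± 0.29, and -0.072 without that sample.

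Gzmb, the granule protease granzyme B (chr14:56258838-56262260, minus strand), had 9, 19 and 9 counts at 30 days, 31, 47 and 23 at 60 days and 54, 28 and 19 at 90 days. It was highest in 60-day sample 2, and 90-day sample 2, which was the highest library for most of the other transcripts, had 0.453 times the highest level of the other libraries. The mean was 0.766 ± 0.318 CPM at 30 days, 1.47 ± 0.594 at 60 days and 1.24 ± 0.498 at 90 days (SD, n = 3), and the groups overlapped. At 60 days its log2 fold change against 30 days was 0.93 ± 0.46 (SE; adjusted p = 0.427), and 90 against 60 days gave -0.23 ± 0.42 (adjusted p = 0.898), or -0.071 without 90-day sample 2. At 90 against 30 days it was 0.70 ± 0.46 (adjusted p = 0.485), or 0.86 without that sample. Gzmb belongs to a family of related granzyme genes, and how reads shared between relatives were assigned is not given in the sources used here.

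Ccl5, a chemokine that draws T cells and monocytes (chr11:83525778-83530518, minus strand), had the most counts of the 9. It had 14, 57 and 58 counts at 30 days, 96, 50 and 63 at 60 days and 120, 214 and 111 at 90 days. The 90-day libraries were above the 30-day ones, while 90-day sample 1 was below 60-day sample 1 in CPM. At 90 against 30 days its log2 fold change was 1.10 ± 0.37 (SE; adjusted p = 0.135), or 0.85 without 90-day sample 2 (adjusted p = 0.433). Against 60 days it was 0.91 ± 0.36 (adjusted p = 0.377), or 0.66 without that sample.

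None of the 7 transcripts that could be tested passed at an adjusted p of 0.05 in a pairwise comparison with edgeR. Over all genes tested, 1.56% passed from 30 to 60 days, 0.256% from 60 to 90 days and 3.57% from 30 to 90 days. At an unadjusted p under 0.05 the counts were 0, 5 and 4 of the 7, against 12.4%, 10.8% and 16.8% of all genes tested. DESeq2 called none, none and 2 (Cd4 and Ccl5 from 30 to 90 days), against 2.47%, 0.985% and 5.7% of all genes to which it gave an unadjusted p. It gave no pairwise adjusted p to Cd3e or Cd3g, and none to Cd4 from 30 to 60 or from 60 to 90 days. Fewer than 7 could therefore be called in each comparison. With limma-voom it was 0 in all 3, against 0.998%, 0.263% and 2.92%. Fitted without the filter on counts, edgeR called none of the 9 from 30 to 60 days, Lck and Ccl5 from 60 to 90 days and Cd3d, Cd4 and Ccl5 from 30 to 90 days. The shares over all 27001 genes were 1.7%, 1.31% and 3.87%. None of these 5 calls was made when 90-day sample 2 was left out of that fit, an alternative added after seeing the data.

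In the ordering of the libraries, 4 of the 9 transcripts (Cd3d, Cd3e, Cd4 and Ccl5) had all 3 libraries at 90 days above all 3 at 30 days, against 8.08% of the 27001 genes with a count. Against 60 days the number was 5 (Cd3d, Cd3e, Cd3g, Cd4 and Cd8a; 6.44% of genes with a count), and only Cd3d was higher in all 60-day than in all 30-day libraries (5.87%). Cd3d, Cd3e and Cd4 were above all 6 earlier libraries at 90 days, as were 2.28% of genes with a count. The median log2 fold change of the 9 transcripts, from the fit without the filter, was 0.21 from 30 to 60 days, 1.59 from 60 to 90 days and 1.34 from 30 to 90 days, also with Cd3d at its bound. The medians of all genes with a count were 0.0, 0.0035 and 0.033. The members' medians were 0.21, 0.92 and 0.88 without 90-day sample 2.

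**Figure D3:**
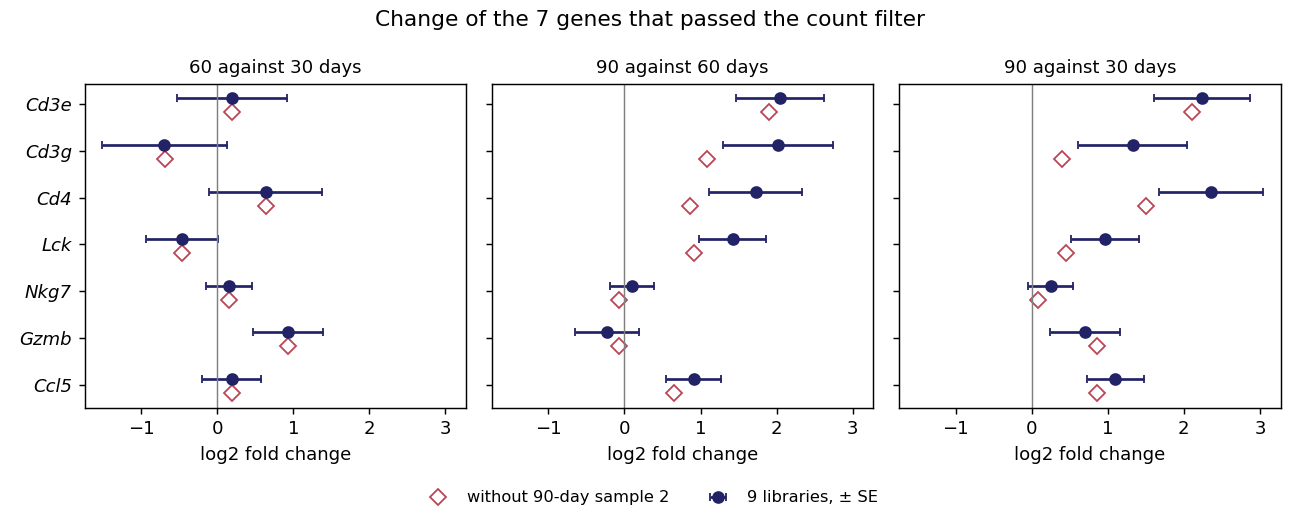
Log2 fold changes (horizontal axes) of the 7 genes that passed the filter in the 3 pairwise comparisons, from all 9 libraries with standard errors as bars (filled circles) and without 90-day sample 2 (open diamonds). At 90 against 30 days, Cd4 moves from 2.36 to 1.50 and Cd3g from 1.33 to 0.40 without that sample, and Cd3e from 2.24 to 2.10.

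Markers of other immune cells are given beside these values. No gene of the B-cell, macrophage, dendritic-cell, neutrophil and mast-cell or pan-leukocyte lists was called in a pairwise comparison by edgeR, DESeq2 or limma-voom. In that order, only 1 of 10, 13 of 13, 10 of 10, 3 of 12 and 10 of 10 genes passed the filter. The remaining genes were not tested, so most B-cell, neutrophil and mast-cell genes could not be called. At an unadjusted p under 0.05, edgeR gave 6 of the 10 pan-leukocyte genes from 60 to 90 days and 1 from 30 to 90 days. It gave at most 2 genes in any other of these lists. Over all genes tested, the unadjusted shares were 12.4% from 30 to 60 days, 10.8% from 60 to 90 days and 16.8% from 30 to 90 days. The 10 B-cell markers summed to 1.49 to 2.13 CPM at 30 days, 0.561 to 1.45 at 60 days, 1.25 and 1.81 in 90-day samples 1 and 3, and 9.89 in 90-day sample 2. The ratio of Ighm to Igha, the IgM and IgA heavy chains, was 3.26 in that sample and 0.14 to 0.413 elsewhere. The 10 pan-leukocyte genes summed to 77.3 to 126.4 CPM at 30 days, 82.9 to 99.8 at 60 days and 107.5 to 163.5 at 90 days, each gene being highest in 90-day sample 2. Of the lymph node stroma and vessel list, the homing chemokine Ccl21a and the sulfotransferase Chst4 were at 0 counts in all 9 libraries, and in 90-day sample 2 Ccl19 had 1 count, Glycam1 had 2 and the follicle chemokine Cxcl13 had 27. Reads of Ccl21a may be lost to its near-identical copies. By level, the leading genes of that list were Enpp2, with 186 to 335 counts, and Ltb, with 7 to 109. The 12 neutrophil and mast-cell genes summed to 34.0 to 53.3 CPM, highest in 90-day sample 1, led by Kit, which glandular cells also transcribe, and Csf3r, with 14 to 62 counts. In that list S100a8, Cxcr2 and Retnlg were at 0 in all libraries, while S100a9 had 2 counts in 30-day sample 3. The part of B cells or of adjoining lymphoid tissue in the T-cell values was not tested, and the members' fold changes without sample 2 are given above.

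**Figure D4:**
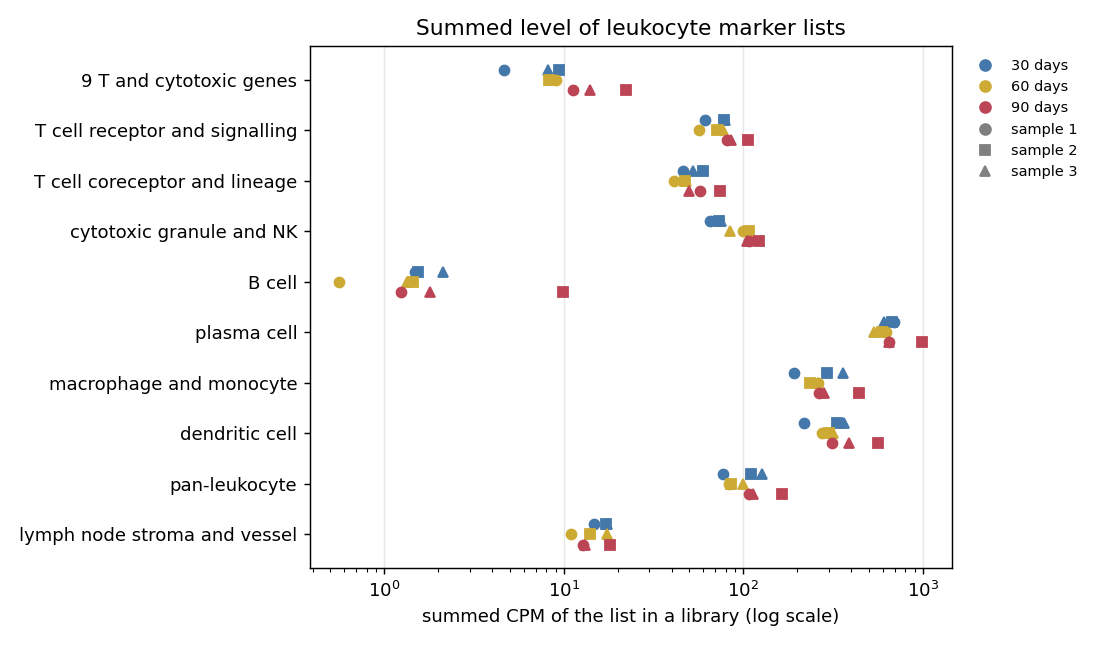
Summed CPM of the 9 transcripts and of 9 marker lists (horizontal axis, log scale) in each library, with color for the time point and shape for the sample number. The B-cell list reaches 9.89 CPM in 90-day sample 2 and at most 2.13 CPM in the other 8 libraries.

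The 3 CD3 genes together, Nkg7 and Gzmb were also set against the leukocyte gene Ptprc, which encodes CD45. The summed Cd3d, Cd3e and Cd3g counts were 3.47, 1.47 and 4.18 per 100 Ptprc counts at 30 days, 3.02, 4.68 and 3.26 at 60 days and 6.72, 14.4 and 7.26 at 90 days. All 3 values at 90 days were above the other 6. Of Cd3d, Cd3e, Cd3g, Cd4, Cd8a, Lck and Ccl5 taken alone, only Cd3e kept this order. Cd3g had 7 counts beside 468 of Ptprc in 90-day sample 3 and 10 beside 335 in 30-day sample 3. Lck had 34 beside 580 in 90-day sample 1 and 15 beside 202 in 30-day sample 1. For Cd4 there were 18 beside 580 in 90-day sample 1 and 13 beside 299 in 60-day sample 2. Nkg7 gave 9.41, 10.9 and 10.7 per 100 Ptprc counts at 30 days, 22.0, 14.4 and 10.8 at 60 days and 10.0, 10.0 and 8.97 at 90 days, so its 90-day values overlapped the 30-day range. Gzmb was at 13.4 and 15.7 in 60-day samples 1 and 2 and at 2.69 to 9.31 in the other 7 libraries. No test was run on these ratios.

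**Figure D5:**
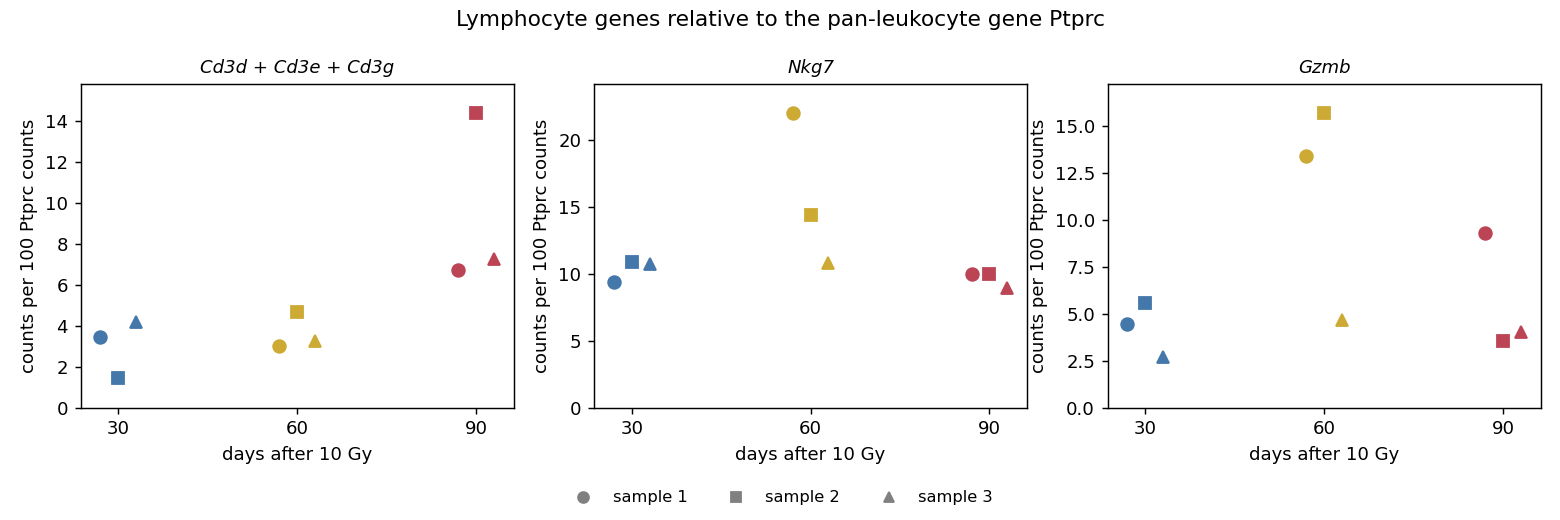
Counts of the 3 CD3 genes together, of Nkg7 and of Gzmb per 100 Ptprc counts (vertical axes) by days after irradiation, with each point a library and its shape the sample number. The CD3 ratio is 6.72 to 14.4 at 90 days and at most 4.68 before, and the highest Gzmb ratios are in 60-day samples 1 and 2.

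Among 24 further genes of the T-cell receptor complex and its signalling, 19 passed the filter. Between 30 and 90 days 1 rose and 1 fell, with 6 at an unadjusted p under 0.05, 4 called by DESeq2 and 2 by limma-voom. For this and the lists that follow, the shares over all genes were those given for the members: from 30 to 90 days 3.57%, 16.8% unadjusted, 5.7% with DESeq2 and 2.92% with limma-voom. None passed from 30 to 60 days (4 unadjusted) or from 60 to 90 days (7 unadjusted), by edgeR, DESeq2 or limma-voom. Their median log2 fold change was 0.67 from 60 to 90 days and 0.61 from 30 to 90 days. Trdc, the constant region of the delta chain of the gamma-delta T-cell receptor (chr14:54142851-54148868, plus strand), was the gene that rose. It had 98, 169 and 148 counts at 30 days, 252, 299 and 257 at 60 days and 444, 502 and 362 at 90 days. The CD3 genes had 0 to 50 counts per library, far fewer than Trdc, and which cells the Trdc reads come from was not tested. In CPM the 3 time points did not overlap: 6.94 to 10.0 at 30 days, 10.7 to 13.5 at 60 days and 15.0 to 18.2 at 90 days. At 90 against 30 days its log2 fold change was 0.96 ± 0.16 (SE; adjusted p = 0.00197), or 0.94 without 90-day sample 2 (adjusted p = 0.0118). The adjusted p was under 0.05 in each alternative, from 4.12e-07 to 0.0170. Antisense Gm43434 overlaps its exons, with 54 counts over the 9 libraries, and whether counting used strand is not given in the sources used here. Rasgrp1, which activates Ras below the receptor, fell by 0.69 ± 0.13 on the log2 scale from 30 to 90 days (adjusted p = 0.00549), a call lost with library-size scaling (-0.46, adjusted p = 0.184). The fold change was -0.66 without 90-day sample 2 (adjusted p = 0.0371). Rasgrp1 had 213 to 369 counts per library, and which cells its reads come from was not tested either.

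Of 28 coreceptor, costimulation and lineage genes, 20 passed the filter and 1 rose between 30 and 90 days, with 5 at an unadjusted p under 0.05, 2 called by DESeq2 and 0 by limma-voom. None passed in the other two contrasts by any of the 3 tools (2 unadjusted from 30 to 60 days and 6 from 60 to 90 days). The gene that rose was Cxcr6, a chemokine receptor of resident T and NK cells, with 4, 11 and 7 counts at 30 days, 20, 12 and 14 at 60 days and 33, 57 and 43 at 90 days. Its log2 fold change was 1.91 ± 0.48 (SE; adjusted p = 0.0299). Leaving out 30-day sample 1 or 3, or 90-day sample 2 or 3, ended this call (adjusted p 0.0782 to 0.148, with 0.141 for 90-day sample 2) at log2 fold changes of 1.69 to 1.84, as did limma-voom (0.0794). Cxcr6 lies inside Fyco1 on the opposite strand. The list's median was 0.65 from 30 to 90 days.

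Of 20 cytotoxic granule and NK-cell genes, 17 passed the filter; 1 rose from 30 to 60 days and 2 from 30 to 90 days. None passed from 60 to 90 days by edgeR, DESeq2 or limma-voom (1 unadjusted). Both that rose encode inhibitors of granule proteases. Serpinb6b was higher by 0.85 ± 0.15 on the log2 scale at 60 than at 30 days (adjusted p = 0.00396) and by 0.91 ± 0.15 at 90 days (adjusted p = 0.00153). Serpinb9, the granzyme B inhibitor, was higher by 0.64 ± 0.12 at 90 than at 30 days (adjusted p = 0.00468). The values at 90 days were 0.84 (adjusted p = 0.0112) and 0.62 (adjusted p = 0.0262) without 90-day sample 2. Both belong to a family with close relatives, so their counts are uncertain to that extent, and many other cell types transcribe them. The list's median was 0.48 from 60 to 90 days and 0.53 from 30 to 90 days, beside the medians of all genes given above.

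None of the 14 of 16 lymphocyte-attracting chemokine and receptor genes that passed the filter was called by edgeR in any contrast, although 1, 5 and 4 had an unadjusted p under 0.05. DESeq2 called 0, 1 and 1 and limma-voom 0 in each. Of 10 plasma-cell genes, 9 were tested and 8 of the 10 had a positive log2 fold change at 90 against 30 days in the unfiltered fit (median 1.40). In that comparison 5 had an unadjusted p under 0.05 by edgeR and 1 passed, while DESeq2 and limma-voom called 3 each. From 60 to 90 days 7 had an unadjusted p under 0.05 by edgeR (10.8% of all genes) and 0 passed (0.256%). There DESeq2 called 3 (0.985%) and limma-voom 1 (0.263%). From 30 to 60 days the number was 0 in each. Jchain, the joining chain of secreted IgM and IgA, had 49 to 156 counts before 90 days and 387, 1529 and 337 at 90 days. Igha had 276 to 847 counts before and 1930, 1708 and 1289 at 90 days. The gene that passed, Derl3, which acts in protein quality control of the endoplasmic reticulum, fell by 0.41 ± 0.11 (SE) on the log2 scale from 30 to 90 days (adjusted p = 0.0373). The gene is also active in secretory epithelium, and the call ended with library-size scaling (-0.18, adjusted p = 0.470) and without 30-day sample 1 or 2, 60-day sample 2 or any of the 90-day samples (adjusted p 0.0519 to 0.201). Ptprc, counted among the pan-leukocyte genes, had a log2 fold change of 0.36 ± 0.23 (SE) at 90 against 30 days (adjusted p = 0.484).

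The genes most like the CD3 genes were sought by the correlation, across the 9 libraries, of log2 CPM with the mean of Cd3d, Cd3e and Cd3g. The highest among non-members were Prr13 (r = 0.973), Cited2 (0.969), Trp63 (0.964), Trbc2 (0.95), Rasal3 (0.944) and Tmem176a (0.944). Without 90-day sample 2 these values were 0.926, 0.937, 0.947, 0.871, 0.892 and 0.891. Trbc2, which encodes a constant region of the T-cell receptor beta chain, is the only one of these genes in the marker lists used here. It had 6 to 23 counts in the 30-day and 60-day libraries and 28, 86 and 22 at 90 days. The genes with higher values than Trbc2 had more counts. Prr13 had 206 to 352 counts before 90 days and 545, 729 and 375 at 90 days. Cited2 had 183 to 353 before and 454, 635 and 365 at 90 days, and Trp63 had 142 to 352 before and 483, 804 and 418 at 90 days. Among the members outside the CD3 genes, r was 0.851 for Cd4, 0.752 for Cd8a, 0.707 for Lck, 0.636 for Ccl5, 0.488 for Nkg7 and 0.0415 for Gzmb. In the same order, r was 0.656, 0.551, 0.337, 0.419, 0.082 and 0.19 without 90-day sample 2. The points share their libraries, scaling and time order, so these values are descriptions.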

How the data were processed

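The authors deposited raw read counts per gene, whole numbers for 54532 Ensembl identifiers. The submitters' processing notes name fastp, STAR, featureCounts and mm10, which is GRCm38; the annotation, the use of strand and filters are not given in the sources used here. Columns were matched to samples by day and sample number, and 3 further columns match no listed sample and were not used. Symbols were found for 54409 identifiers, and GENCODE mouse release 21 (GRCm38) supplied positions and exon lengths.

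Low counts were removed with filterByExpr (minimum count 10; a level of 0.46 CPM), which left 15224 genes. The 9 libraries were fitted together with edgeR 4.0.16 (TMM scaling, robust quasi-likelihood test), with Benjamini-Hochberg adjustment over all genes tested and a threshold of 0.05. The fit was tested on simulated data. There, at 90 against 30 days, 200 genes were altered by a log2 fold change of 1 or 2 in size. It recovered 73.5% of them (62% at 1 and 85% at 2), with 4.55% of its calls false. Of the 50 altered genes with a mean under 2 CPM over the 9 libraries it recovered 22%. In the glands, the tested members Cd3e, Cd3g, Cd4, Lck and Gzmb had a mean under 2 CPM over the 9 libraries. Cd3d and Cd8a, also under it, did not pass the filter. DESeq2 1.42.0 and limma 3.58.1 (voom) ran in R 4.3.3, and figures in matplotlib 3.10.9. The SE of a fold change was derived from the edgeR test, as the absolute log2 fold change divided by the square root of the F statistic. A floor of 3 counts bounds folds against groups at 0.

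All members are named. Of each other list, at most 3 genes that passed are named, or, where none did, at most 2 with the highest level; B-cell, plasma-cell, lymph node and neutrophil markers named beyond this were chosen after their values were seen. The genes most like CD3 are the top 6 by correlation. The members and lists were chosen with earlier results of these data known. Alternatives were other scalings, tools and filters, thinning to the smallest library total, a replicate block and leaving out each library.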

Additional observations from a re-analysis of the deposited data

How the results depend on the processing

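Members called at an adjusted p under 0.05 moved with the setting. From 30 to 90 days, where the main count was 0 of 7 tested, it was 2 with library size only, 2 with DESeq2, 3 without a filter on counts (of 9) and 1 with only the 6 libraries compared. From 60 to 90 days it was 2 without the filter. For any difference (main 1, Cd3e) it was 2 with library size only and 5 without the filter, and 0 with limma-voom and at an adjusted p under 0.01. It was also 0 with at least 10 counts in every library (3 members tested) and with thinning (6 tested). Cd3e did not pass the filter in these last settings, so its call could not be made there. Leaving out 1 library gave 0 to 2 from 30 to 90 days, 0 to 2 for any difference and 0 in the other comparisons; the values of 2 came without 90-day sample 1, where Cd3e and Cd4 were called.

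Genes called over the whole table also moved. From 30 to 60 days (238) there were 90 with library size only, 376 with DESeq2, 152 with limma-voom, 459 without the filter and 72 when a log2 fold change of 1 or more in size was also required. From 60 to 90 days (39) there were 150 with DESeq2, 354 without the filter and 14 with that fold change. From 30 to 90 days (544) there were 867, 1045 and 129 for the same 3 settings. For any difference (501) there were 277 with library size only, 847 with DESeq2, 333 with limma-voom, 1194 without the filter and 163 at an adjusted p under 0.01. Leaving out 1 library gave 73 to 244, 16 to 103, 184 to 703 and 220 to 683. Scaling by library size only gave 406 higher and 34 lower from 30 to 90 days, against 275 and 269, and moved the median of all genes tested from 0.01 to 0.24. It gave 79 and 11 from 30 to 60 days, against 173 and 65, and 19 and 9 from 60 to 90 days, against 14 and 25. The cause of these moves was not tested.

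The labels state no pairing of samples by number. The deviations of same-numbered samples correlated at -0.06 to 0.191, over 0.1 in 1 of 9 pairs, and those of differently numbered samples at -0.21 to 0.189. With 3 libraries per group, these values cannot tell whether the samples are paired. With the sample number as a replicate block, 270 genes were called from 30 to 60 days, 92 from 60 to 90 days and 717 from 30 to 90 days. In that fit 1 member (Cd4) was called from 30 to 90 days, and the adjusted p of Cd3e for any difference was 0.0533.

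Small differences changed sign when 1 library was left out. From 30 to 60 days, Cd3e ran from -0.052 (without 30-day sample 2) to 0.403 on the log2 scale. Cd8a ran from -0.209 (without 30-day sample 3) to 1.67, with -0.124 without 30-day sample 1 and -0.133 without 60-day sample 2. Nkg7 ran from -0.029 to 0.276 and Ccl5 from -0.177 to 0.434, both lowest without 30-day sample 1, and Ccl5 was -0.108 without 60-day sample 1. From 60 to 90 days, Nkg7 ran from -0.072 (without 90-day sample 2) to 0.183, Gzmb from -0.624 to 0.125 (without 60-day sample 2) and Serpinb6b from -0.114 (without 60-day sample 3) to 0.160, with -0.016 without 90-day sample 2. With 0 to 104 counts for the T-lineage transcripts, depth limits the precision of each fold change.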
